A study of Mus musculus with 10 samples.

Results

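The heat shock proteins and chaperones described here are 10 genes, chosen by symbol, out of 52178 in the deposited table: the transcription factor gene Hsf1, the inducible HSP70 genes Hspa1a and Hspa1b, the constitutive HSP70 gene Hspa8, the co-chaperone genes Dnajb1 and Hsph1, the HSP90 gene Hsp90aa1, the small heat shock protein gene Hspb1, and the mitochondrial chaperonin genes Hspd1 and Hspe1. Each symbol matched 1 Ensembl gene, and all 10 passed the filter on low counts. They were measured by RNA-seq of pancreatic islets from male C57Bl/6 mice, all retired breeders, in 5 libraries of the sedentary group (sedentary 1 to 5) and 5 of the exercise group (exercise 6 to 10). After 3 days of acclimatization the exercised mice ran for 2 weeks on a treadmill tilted by 5 degrees, at a belt speed of 17 cm/s, on 5 days of each week and for 1 h on each of them. Islets of both groups were released with collagenase injected through the pancreatic duct, picked by hand and plated in medium with 11 mM glucose, so that all libraries come from tissue that had gone through enzymatic digestion. Which animal or animals gave each library is not in the labels, nor is the time from the last run to islet isolation. All p-values therefore reflect variation from library to library, part of which may be technical.

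Chaperones help other proteins to fold, keep damaged proteins from clumping and hold signalling proteins in a state that can be activated. In the heat shock response, unfolded protein draws chaperones away from HSF1, which then binds heat shock elements in the promoters of chaperone genes and raises their transcription. HSP70 proteins bind short unfolded stretches in a cycle driven by ATP, in which J-domain proteins such as the product of Dnajb1 deliver the substrate and HSP110 proteins such as that of Hsph1 release the nucleotide. Beta cells make and export large amounts of insulin and are known to raise chaperones under protein folding load.

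Library totals lay between 15081922 and 23222704 counts. Values are CPM, the count divided by the library's size and expressed per 1e+06, with library sizes scaled by edgeR's TMM factors, and groups are given as mean ± SD with n = 5. The 10 markers of beta cells took 0.864% and 4.06% of the counts in sedentary 1 and 2, against 16.3 to 23.04% in sedentary 3 to 5 and 9.01 to 17.8% in exercise. Beta cell RNA was thus scarcest in these 2 libraries. None of the 10 beta cell markers passed the test between groups, and without sedentary 1 and 2 only G6pc2 did (log2 fold change 0.85, edgeR's adjusted p = 0.0121). The 30 markers of the small intestinal epithelium took 2.00% and 3.05% in sedentary 1 and 2, 0.476 to 0.679% in sedentary 3 to 5 and 0.0319 to 0.130% in exercise, and 29 of the 30 were lower in exercise, the most abundant being Apoa4 (2076 ± 1500 and 119 ± 98.3 CPM) and Alpi (1167 ± 1016 and 51.2 ± 32.7 CPM). No intestinal marker was at 0 in every library, and Cdx1, Mep1a and Itln1 were at 0 in at least 1 library. The 29 acinar markers found in the table took 7.84 to 15.7% in sedentary and 16.8 to 28.1% in exercise libraries, 15 of the 29 were higher in exercise, and none was at 0 in any library. Cela2a (13131 ± 3758 and 31058 ± 13249 CPM) and Ctrb1 (11230 ± 2787 and 30386 ± 12741 CPM) were the most abundant of these. The part of these other cells in the results below cannot be told apart from the group difference, since their marker levels followed the group. In bulk tissue, fewer cells of a type and less RNA per cell cannot be told apart. Results are therefore given also without sedentary 1 and 2. That fit did not remove the difference in these markers. In it 28 of the 30 intestinal markers were lower in exercise and 18 of the 29 acinar markers were higher.

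Promoters of 7 of the 10 genes were found in a RefSeq table of windows of 300 bases around each gene's start (GRCm38.p6), and 6 of the 7 held at least 1 heat shock element unit, GAANNTTC or TTCNNGAA. Both words read the same on either strand, and neighbouring units can overlap by sharing a triplet. Of all 32851 windows in the table, 15.1% held a unit and 1.96% held 2 or more. The sequences below are those of the genes that moved most and of the mitochondrial pair, with the units in capitals, read 5' to 3' along the named gene's strand. The first 3 are the 150 bases before the start, and the last is 30 bases from the stretch shared by Hspd1 and Hspe1. They lie at chr17:34972157-34972306 (minus strand), chr17:34959239-34959388 (minus strand), chr5:135887769-135887918 (plus strand) and chr1:55088053-55088082 (plus strand).
Hspa1a: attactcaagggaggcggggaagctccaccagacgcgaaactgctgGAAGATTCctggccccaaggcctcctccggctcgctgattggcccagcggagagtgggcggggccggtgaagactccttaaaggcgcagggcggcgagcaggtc
Hspa1b: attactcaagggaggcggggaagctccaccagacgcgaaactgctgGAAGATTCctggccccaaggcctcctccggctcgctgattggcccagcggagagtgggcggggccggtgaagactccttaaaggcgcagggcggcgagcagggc
Hspb1: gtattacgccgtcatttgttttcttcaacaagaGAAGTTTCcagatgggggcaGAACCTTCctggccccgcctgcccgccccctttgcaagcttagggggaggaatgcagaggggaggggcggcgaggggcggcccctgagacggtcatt
Hspd1-Hspe1: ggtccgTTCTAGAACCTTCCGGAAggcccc
The Hspa1a and Hspa1b stretches were identical at 149 of 150 bases and carried 1 unit, 104 to 97 bases before the start. Hspb1 carried 2 units, from 117 and from 97 bases before its start. Hspd1 and Hspe1 are neighbours transcribed in opposite directions, and the stretch between them held 3 overlapping units. An array of at least 3 alternating triplets (2 or more overlapping units) was also found in Hsph1 and in 0.603% of all windows. The 2 windows of Hsph1 overlap and held the same array, from base 37 and from base 16 counted from their starts. Neither of the 2 windows of Dnajb1 and only 1 of the 2 of Hspd1 held a unit. A match is a description of letters and was not tested as a binding site.

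**Figure D1:**
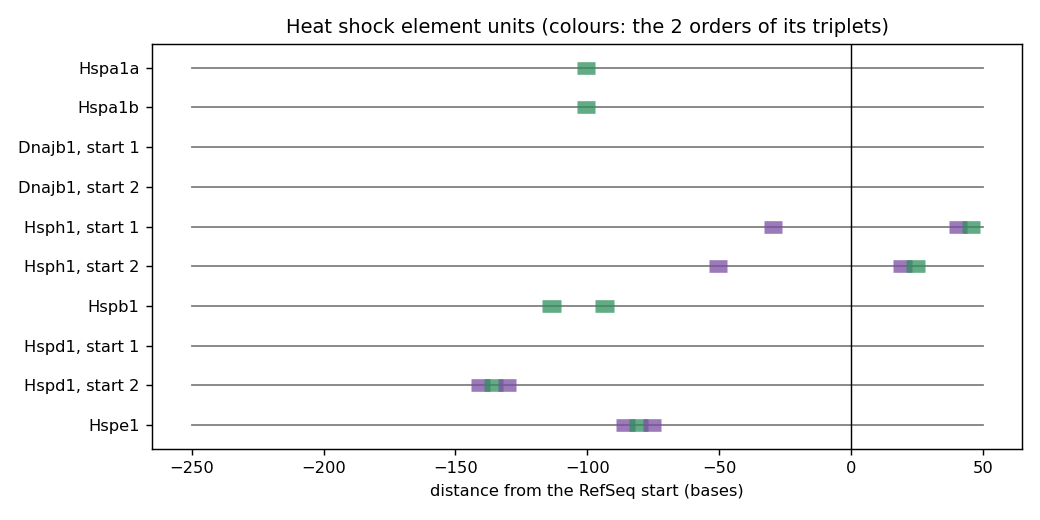
Position of heat shock element units (coloured blocks) in the RefSeq promoter windows of 7 heat shock genes, with distance from the start in bases on the horizontal axis and 1 line per window. Hspd1 (start 2) and Hspe1 show 3 overlapping units each, Hspa1a and Hspa1b 1 unit at the same distance, and Dnajb1 none.

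In exercise islets the inducible HSP70 genes and Dnajb1 were lower and Hspb1 was higher, while the factor gene, the constitutive HSP70, the HSP110, the HSP90 and the mitochondrial pair did not pass the test. Of the 10 genes, 3 fell, 1 rose and 6 did not pass (quasi-likelihood test of edgeR with a threshold of 0.05 on p-values adjusted over 15298 genes by Benjamini-Hochberg). Over all genes tested, 13.9% were called, 11.4% lower and 2.44% higher. The median log2 fold change of the 10 genes was -0.56, and -0.12 without sedentary 1 and 2, where the medians of all genes were -0.00072 and 0.026. The same 4 genes were called without sedentary 1 and 2, where 12.8% of 15692 genes were called, 4.1% higher and 8.68% lower. DESeq2 called 6 of the 10 and 24.5% of all genes, limma-voom 2 and 3.37%, RLE scaling 5 and 13.8%, and scaling to library totals alone 6 and 29.9%. Without sedentary 3 there were 5 called and 16.4% of all genes, and without sedentary 4 there were 7 and 23.4%. In 3 of the 10 every exercise library lay below every sedentary library and in 1 every exercise library lay above, against 11.4% and 6.24% of all genes tested.

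**Figure D2:**
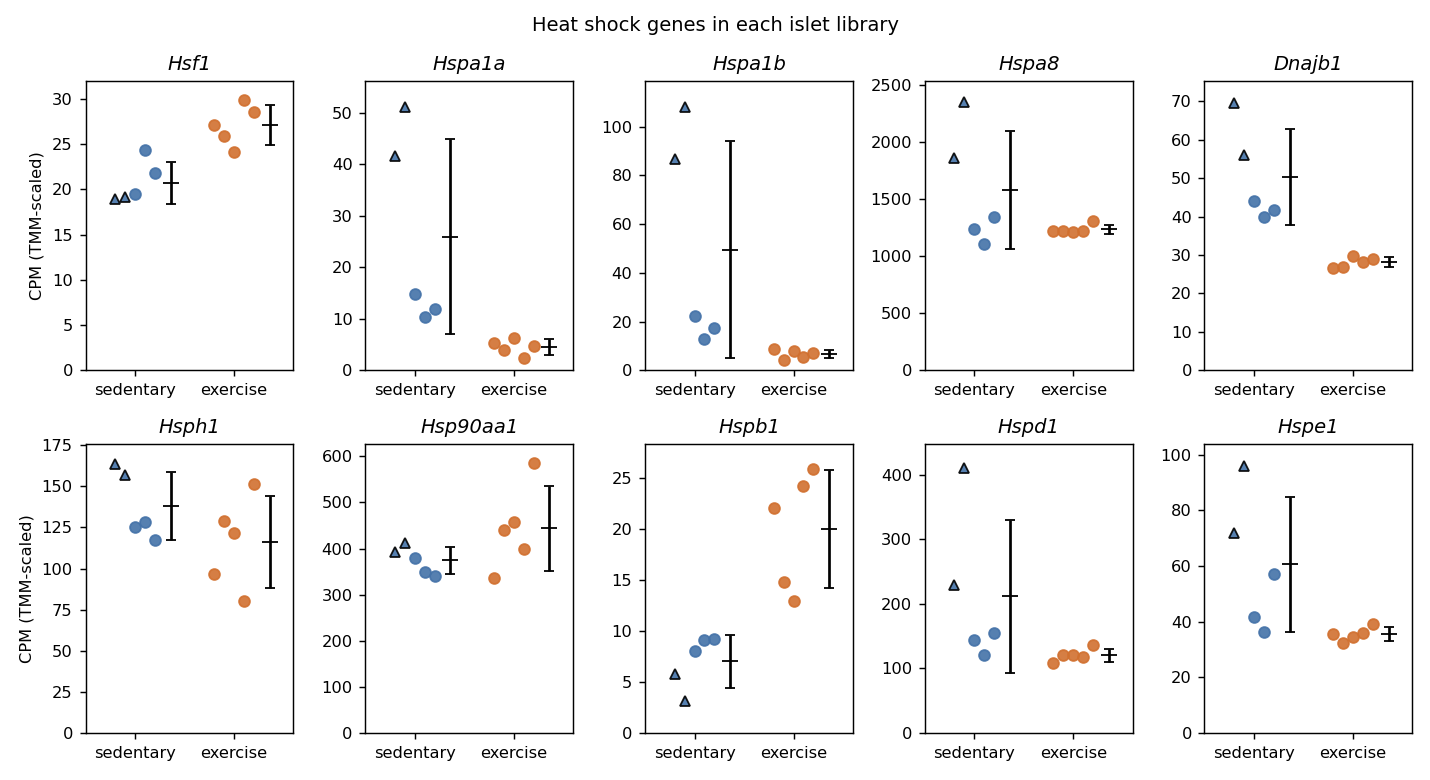
CPM of each of the 10 genes in each library (points), with group mean ± SD (black bars, n = 5), and sedentary 1 and 2 as outlined triangles. Sedentary 1 or 2 held the highest value of 7 of the 10 genes, and groups do not overlap for Hspa1a, Hspa1b, Dnajb1 and Hspb1.

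The factor comes first in the response. Hsf1 (ENSMUSG00000022556), which encodes its master transcription factor, had 18.9, 19.1, 19.5, 24.3 and 21.8 CPM in sedentary 1 to 5 and 27.1, 25.9, 24.1, 29.9 and 28.6 CPM in exercise 6 to 10. Exercise libraries were the higher ones apart from a narrow overlap of sedentary 4 with exercise 8. The means were 20.7 ± 2.32 and 27.1 ± 2.25 CPM, a log2 fold change of 0.39 with an SE of 0.12 that did not pass (edgeR's adjusted p = 0.0551). It passed without sedentary 4 (edgeR's adjusted p = 0.0260), with DESeq2 (adjusted p = 0.00283) and with RLE scaling (edgeR's adjusted p = 0.0485). HSF1 is controlled largely after its mRNA is made, through its assembly into trimers and its phosphorylation, so the mRNA level is no measure of its activity.

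Of the inducible HSP70 pair, Hspa1a (ENSMUSG00000091971) had 41.6, 51.1, 14.9, 10.3 and 11.9 CPM in sedentary 1 to 5 and 5.25, 3.91, 6.33, 2.38 and 4.78 CPM in exercise 6 to 10. The groups did not overlap, and within the sedentary group libraries 1 and 2 stood far above the other three. It fell 5.71-fold (log2 fold change -2.51 ± 0.50 SE, edgeR's adjusted p = 0.0117). Hspa1b (ENSMUSG00000090877) had 86.9, 107.9, 22.1, 12.8 and 17.5 CPM in sedentary 1 to 5 and 8.72, 4.17, 7.71, 5.54 and 7.18 CPM in exercise 6 to 10. It followed the same order, with sedentary 1 and 2 far above and no overlap between groups, and fell 7.40-fold (-2.89 ± 0.62 SE, edgeR's adjusted p = 0.0150). Without sedentary 1 and 2 the log2 fold changes were -1.42 ± 0.26 and -1.36 ± 0.24 SE (edgeR's adjusted p = 0.00696 and 0.00566), so the direction was shared by sedentary 3 to 5 at a smaller size. Both genes stayed past the threshold without any 1 library (highest edgeR's adjusted p = 0.0394 and 0.0474). With limma-voom neither passed (adjusted p = 0.0644 and 0.0785).

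The 2 inducible genes are near copies and their reads are hard to divide. Of the distinct 31-base words in their GENCODE M21 transcripts, 63.8% of those of Hspa1a also occurred in Hspa1b and 67.6% of those of Hspa1b in Hspa1a, and neither gene had a whole-number estimate in any library. Summed, they had 128.5, 159.01, 36.99, 23.1 and 29.4 CPM in sedentary 1 to 5 and 13.97, 8.07, 14.04, 7.92 and 11.96 CPM in exercise 6 to 10. As 1 gene they fell by 2.75 on the log2 scale (± 0.57 SE, edgeR's adjusted p = 0.0129), a value that does not depend on how reads were divided between the copies.

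Hspa8 (ENSMUSG00000015656), the constitutive HSP70 that also strips clathrin from vesicles, had 1859, 2350, 1237, 1109 and 1341 CPM in sedentary 1 to 5 and 1217, 1221, 1212, 1222 and 1307 CPM in exercise 6 to 10. Sedentary 1 and 2 were high, and the other 8 libraries lay close together and overlapped between groups. Its log2 fold change was -0.35 ± 0.23 SE (edgeR's adjusted p = 0.286), and 0.033 ± 0.12 without sedentary 1 and 2 (edgeR's adjusted p = 0.886).

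A ratio within a library does not move with library scaling. Summed Hspa1a and Hspa1b counts were 6.91% and 6.77% of Hspa8 counts in sedentary 1 and 2, and 2.99, 2.08 and 2.19% in sedentary 3, 4 and 5. In exercise 6 to 10 they were 1.15, 0.661, 1.16, 0.651 and 0.914%. Every exercise library was below every sedentary library. The mean log2 ratio was -4.78 ± 0.85 in sedentary and -6.83 ± 0.41 in exercise, a difference of -2.05 (5 libraries a group, p = 0.00794 by a two-sided exact permutation test, its lowest possible value). Without sedentary 1 and 2 the difference was -1.44 (exact permutation test, p = 0.0357, the smallest for 3 against 5 libraries). These p-values only restate that the groups did not overlap. The ratio was chosen with earlier results of these data known, so its p-values are no separate support. Across libraries the ratio moved with the intestinal markers: their mean log2 CPM was 7.96 and 8.95 in sedentary 1 and 2, 6.60, 5.93 and 6.54 in sedentary 3 to 5, and 4.08, 2.27, 3.52, 1.86 and 3.89 in exercise 6 to 10. Within groups the order was shared only in part. Exercise 7 and 9 had the lowest intestinal levels and ratios of their group. Exercise 8 had the highest ratio of its group, but a lower intestinal level than exercise 6 and 10. Sedentary 2 had a higher intestinal level than sedentary 1 and a lower ratio. With the intestinal level as a covariate in the fit, the log2 fold changes of Hspa1a and Hspa1b were 0.61 and 0.93 and did not pass (edgeR's adjusted p = 0.924 each), but this covariate itself followed the group (r squared 0.805).

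**Figure D3:**
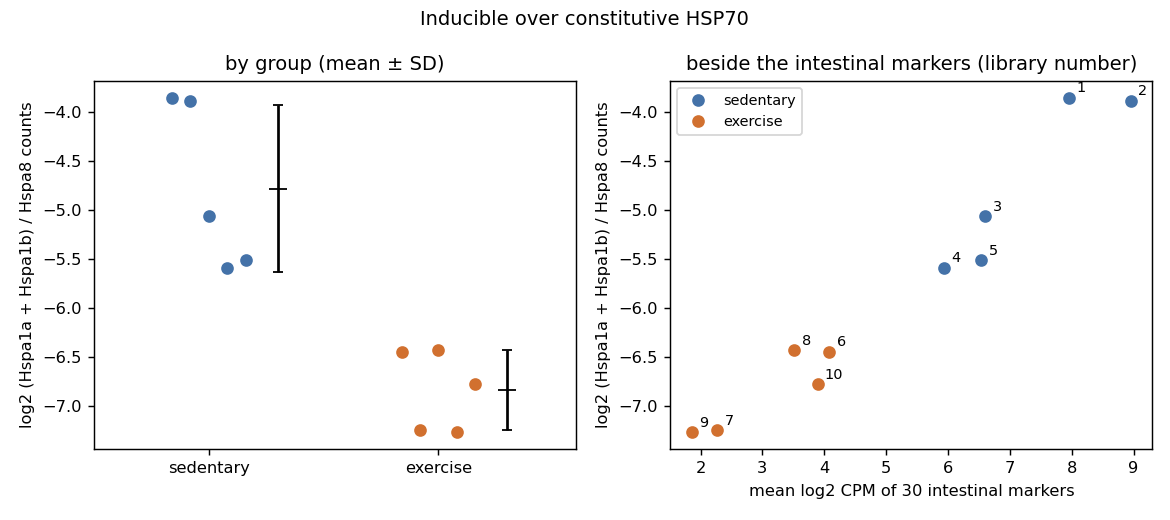
Log2 ratio of inducible (Hspa1a plus Hspa1b) to constitutive (Hspa8) HSP70 counts per library, by group with mean ± SD (left, n = 5) and against the mean log2 CPM of 30 intestinal markers, with library numbers (right). All exercise libraries lie below all sedentary ones, and sedentary 1 and 2 are highest on both axes of the right panel.

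Of the HSP70 co-chaperone genes Dnajb1 and Hsph1, only Dnajb1 passed, and the difference between them was not tested. Dnajb1 (ENSMUSG00000005483), the J-domain partner of the inducible form, had 69.6, 56.0, 44.1, 39.9 and 41.8 CPM in sedentary 1 to 5 and 26.7, 27.0, 29.9, 28.2 and 28.95 CPM in exercise 6 to 10. Its exercise values were tightly grouped and all below the sedentary ones, a fall of 1.79-fold (log2 fold change -0.84 ± 0.16 SE, edgeR's adjusted p = 0.0105). Without sedentary 1 and 2 it was -0.55 ± 0.08 SE (edgeR's adjusted p = 0.00241), and it passed without any 1 library and with limma-voom (adjusted p = 0.0398). It did not pass with the acinar or the intestinal level as a covariate (-0.95 and -0.24, edgeR's adjusted p = 0.249 and 0.924). Both covariates followed the group. Hsph1 (ENSMUSG00000029657), encoding HSP110, had 163.4, 157.1, 125.2, 128.1 and 117.3 CPM in sedentary 1 to 5 and 97.0, 129.2, 121.9, 80.6 and 151.7 CPM in exercise 6 to 10. These groups overlapped widely, and the log2 fold change was -0.25 ± 0.19 SE (edgeR's adjusted p = 0.344), or -0.06 without sedentary 1 and 2.

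Hsp90aa1 (ENSMUSG00000021270) encodes the stress-responsive cytosolic HSP90, which holds kinases and steroid receptors ready for activation. It had 391.6, 412.5, 379.6, 349.1 and 341.1 CPM in sedentary 1 to 5 and 336.7, 440.8, 457.9, 398.4 and 585.2 CPM in exercise 6 to 10. The exercise group spread more widely and held both the lowest and the highest value. The means were 374.8 ± 29.7 and 443.8 ± 91.8 CPM, with a log2 fold change of 0.24 ± 0.17 SE (edgeR's adjusted p = 0.310), and -0.064 with library totals alone.

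Hspb1 (ENSMUSG00000004951), which encodes a small heat shock protein that binds unfolding proteins without ATP and stabilises actin filaments, went the other way. It had 5.74, 3.11, 7.99, 9.11 and 9.20 CPM in sedentary 1 to 5 and 22.0, 14.8, 12.95, 24.2 and 25.9 CPM in exercise 6 to 10. Every exercise library was above every sedentary library, and sedentary 1 and 2, the highest for inducible HSP70, were the lowest here. The rise was 2.84-fold (log2 fold change 1.504 ± 0.32 SE, edgeR's adjusted p = 0.0140), and 1.21 ± 0.23 on the log2 scale without sedentary 1 and 2 (edgeR's adjusted p = 0.00846). It passed without any 1 library (highest edgeR's adjusted p = 0.0409) and with limma-voom (adjusted p = 0.0425). Hspb1 is abundant in vessel walls and muscle in many tissues. The 10 endothelial markers took 0.00967 to 0.0422% of counts in sedentary and 0.0211 to 0.0356% in exercise, the 14 stromal markers 0.00651 to 0.0285% and 0.0132 to 0.0210%, and none of either list passed with all libraries. Without sedentary 1 and 2 the endothelial receptor gene Flt1 was higher in exercise (log2 fold change 0.49 ± 0.11 SE, edgeR's adjusted p = 0.0183) and the stromal gene Lum was lower (-1.45, edgeR's adjusted p = 0.0180). In that fit the median of the 10 endothelial markers was 0.075. Plvap, the most abundant of them, was at -0.12 (edgeR's adjusted p = 0.682). Flt1, like Hspb1, had its lowest values in sedentary 1 and 2 (8.67 and 11.7 CPM), and its exercise values of 51.9 to 65.9 CPM all lay above the sedentary ones. The endothelial share was also lowest there, at 0.0173% and 0.00967% against 0.0339 to 0.0422% in sedentary 3 to 5. The acinar share, which moved with the group, was 23.5, 18.7, 17.8, 28.1 and 16.8% in exercise 6 to 10. In exercise 6 to 9 Hspb1 followed the order of the acinar share, while exercise 10 had the highest Hspb1 and the lowest acinar share of its group. With the acinar or the intestinal level as a covariate the log2 fold change of Hspb1 was 1.24 ± 0.52 or 0.55 ± 0.61 SE. Neither passed (edgeR's adjusted p = 0.376 and 0.924), but both covariates followed the group. The part of acinar cells in the rise of Hspb1 therefore cannot be told apart from the group difference. Of 8 duct markers 3 were lower in exercise, against 11.4% of all genes tested, among them Krt19 (319 ± 340 and 18.7 ± 15.4 CPM, edgeR's adjusted p = 0.0156). Krt7 went the other way, at 60.6 ± 30.2 and 111 ± 11.3 CPM. It did not pass with all libraries (edgeR's adjusted p = 0.143) and passed without sedentary 1 and 2 (0.0232). The part of endothelial, stromal and duct cells in the rise of Hspb1 was not tested.

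The mitochondrial chaperonin is a barrel of HSP60, from Hspd1, with a lid of HSP10, from Hspe1. Hspd1 (ENSMUSG00000025980) had 229.0, 411.3, 144.1, 120.4 and 154.6 CPM in sedentary 1 to 5 and 107.7, 120.4, 121.6, 118.4 and 135.8 CPM in exercise 6 to 10. Hspe1 (ENSMUSG00000073676) had 71.9, 95.8, 41.8, 36.2 and 57.0 CPM in sedentary 1 to 5 and 35.6, 32.3, 34.5, 35.9 and 39.2 CPM in exercise 6 to 10. Both were high in sedentary 1 and 2, and the other sedentary libraries reached into or near the exercise range. Their log2 fold changes, -0.81 ± 0.31 and -0.77 ± 0.24 SE, did not pass (edgeR's adjusted p = 0.102 and 0.0598), and were -0.18 and -0.32 without sedentary 1 and 2 (edgeR's adjusted p = 0.320 and 0.173). Both passed without sedentary 4 (edgeR's adjusted p = 0.0433 and 0.0169), and Hspe1 also without sedentary 3 (0.0385) and with DESeq2 (adjusted p = 0.0234). The 2 genes, whose shared promoter stretch is printed above, kept a similar proportion: there were 2.71 to 4.29 Hspd1 counts per Hspe1 count in sedentary and 3.02 to 3.73 in exercise libraries, with means of 3.39 ± 0.57 and 3.41 ± 0.26.

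**Figure D4:**
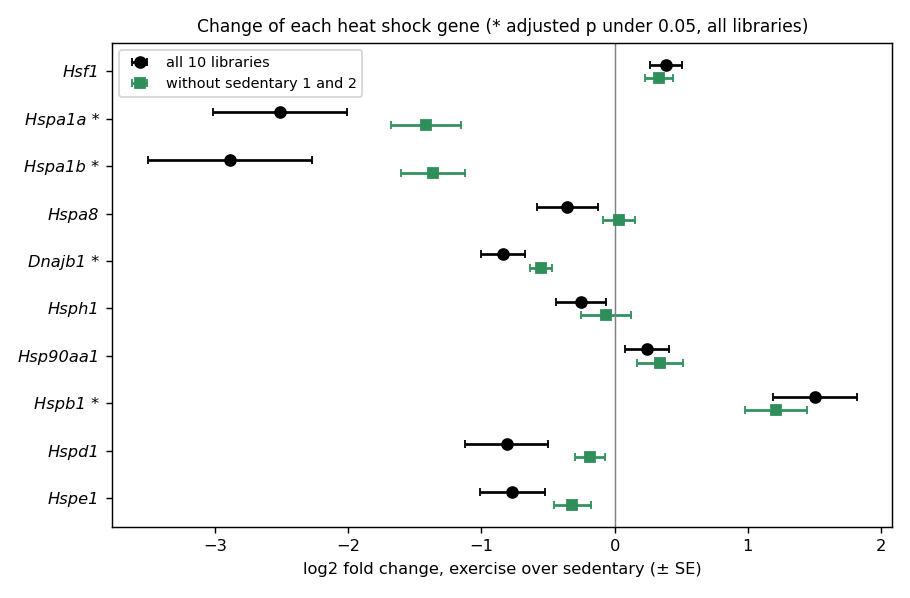
Log2 fold change, exercise over sedentary, with SE for each of the 10 genes, from all 10 libraries (black) and without sedentary 1 and 2 (green). Hspa1a, Hspa1b, Dnajb1 and Hspb1, marked with a star, keep their direction in both fits, while Hspa8 lies at -0.35 and 0.033.

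Levels can be compared between genes only per length, here as CPM per kb of the longest coding transcript in GENCODE M21. In sedentary libraries Hspa8 was highest at 660 ± 216 CPM per kb, followed by Hsp90aa1 at 114 ± 9.05, Hspd1 at 87.4 ± 48.96, Hspe1 at 78.2 ± 31.2 and Hsph1 at 36.4 ± 5.42. Hspa1b at 17.6 ± 15.9, Dnajb1 at 16.8 ± 4.16, Hsf1 at 9.85 ± 1.10, Hspa1a at 8.75 ± 6.40 and Hspb1 at 7.56 ± 2.79 CPM per kb made up the lower end. Neighbours in this order differed by less than the larger of their SDs except at the steps from Hspa8 to Hsp90aa1, Hspe1 to Hsph1, Hsph1 to Hspa1b and Dnajb1 to Hsf1. In exercise libraries the upper 5 kept this order, and the lower end ran from Hspb1 at 21.5 ± 6.21 over Hsf1 at 12.9 ± 1.07, Dnajb1 at 9.39 ± 0.44 and Hspa1b at 2.38 ± 0.65 to Hspa1a at 1.53 ± 0.50 CPM per kb. The sedentary order at the lower end rested on libraries 1 and 2. In sedentary 3 to 5 it ran from Dnajb1 at 14.004 ± 0.71 over Hsf1 at 10.4 ± 1.15, Hspb1 at 9.43 ± 0.73 and Hspa1b at 6.24 ± 1.67 to Hspa1a at 4.17 ± 0.78 CPM per kb, so that inducible HSP70 stood last in these libraries as in exercise. Together the 10 genes took 0.206 to 0.398% of all counts in sedentary and 0.130 to 0.245% in exercise libraries, of which Hspa8 alone made up 56.5 to 64.6%. Of the counts outside the acinar markers, the 10 genes took 0.237 to 0.432% in sedentary and 0.181 to 0.295% in exercise libraries. Other loci share 31-base words with Hspa8, Hsp90aa1, Hspb1, Hspd1 and Hspe1. The locus sharing most with each of them had at most 15 counts in any library.

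The wider chaperone network was read from 9 lists with 119 genes in all, of which 111 were tested, 3 rose and 4 fell. This was 6.31% of the list genes against 13.9% of all genes tested, with a median log2 fold change of -0.07. Without sedentary 1 and 2, 6 of 111 rose and 2 fell, 5 of them genes called with all libraries too. In that fit 4.1% of all genes tested were called higher and 8.68% lower. With limma-voom 3 of the 7 genes passed, while Dnajc22, Dnaja1, Bag3 and Cct4 did not (adjusted p = 0.0658 to 0.0793). None of the 10 tested relatives of HSP70 passed (median log2 fold change 0.31), the smallest p being that of Hspa14, a ribosome-associated member, at 17.7 ± 4.71 and 12.1 ± 1.74 CPM (edgeR's adjusted p = 0.0862). A pair of relatives with known organelles were picked after their values were seen: Hspa5, the HSP70 of the endoplasmic reticulum, had 796 ± 177 and 891 ± 78.0 CPM, and Hspa9, that of mitochondria, 229 ± 96.4 and 162 ± 9.76 CPM (edgeR's adjusted p = 0.522 and 0.179). Of 3 HSP90 relatives none passed (median -0.07). Among them the mitochondrial Trap1 had 57.2 ± 30.9 and 30.7 ± 1.92 CPM (edgeR's adjusted p = 0.0668), and passed without sedentary 3 or 4 (0.0470 and 0.0291).

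The small heat shock proteins beside Hspb1 had 4 tested members, none of which passed (median 0.65). Hspb8, which works with Bag3 in clearing misfolded protein, had 3.82, 5.68, 17.3, 18.0 and 16.1 CPM in sedentary 1 to 5 and 23.5, 25.4, 27.7, 25.5 and 34.8 CPM in exercise 6 to 10. The groups did not overlap, and sedentary 1 and 2 were lowest, as for Hspb1. Its log2 fold change was 1.17 ± 0.40 SE (edgeR's adjusted p = 0.0760), and 0.70 ± 0.14 SE without sedentary 1 and 2 (edgeR's adjusted p = 0.00872). It also passed without sedentary 4 (0.0467) and with DESeq2 (adjusted p = 0.0245). Hspb6, named after its values were seen, was called as higher without sedentary 1 and 2 too (log2 fold change 0.49, edgeR's adjusted p = 0.0436).

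Of 39 J-domain genes, 1 rose and 2 fell (median -0.01), against 2.44% and 11.4% of all genes tested. Dnajc22, of unsettled function, had means of 14.6 ± 14.4 and 1.09 ± 0.23 CPM and fell by 3.73 on the log2 scale (± 0.66 SE, edgeR's adjusted p = 0.00900), with 20.9 and 37.1 CPM in sedentary 1 and 2 and 4.19 to 5.44 CPM in sedentary 3 to 5. Without those 2 libraries it was -2.16 (edgeR's adjusted p = 0.00100), and with limma-voom it did not pass (adjusted p = 0.0658). Dnajc1, of the endoplasmic reticulum membrane, rose from 30.01 ± 7.77 to 50.02 ± 3.17 CPM (0.74 ± 0.17 SE, edgeR's adjusted p = 0.0208), a call lost without exercise 7 or 8 (0.0591 and 0.0530). Dnaja1, a heat-inducible partner of Hspa8, fell from 217 ± 70.6 to 132 ± 9.61 CPM (-0.72 ± 0.21 SE, edgeR's adjusted p = 0.0494). That call was lost without sedentary 1, sedentary 2, both of these, or any 1 exercise library (edgeR's adjusted p = 0.0920 to 0.114). Dnaja4, also named after its values were seen, did not pass with all libraries but was higher in the fit without sedentary 1 and 2 (0.65, edgeR's adjusted p = 0.00585).

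Of 24 co-chaperones of HSP70 and HSP90, 2 rose and 1 fell (median -0.17), against 2.44% and 11.4% of all genes tested. Fkbp5, an HSP90 co-chaperone that is a textbook target of the glucocorticoid receptor and lowers its hormone binding, had 21.8, 21.95, 50.6, 46.7 and 62.0 CPM in sedentary 1 to 5 and 221.5, 167.2, 173.1, 288.9 and 136.0 CPM in exercise 6 to 10. The groups were far apart, with the lowest values in sedentary 1 and 2. It rose by 2.28 on the log2 scale (± 0.34 SE, edgeR's adjusted p = 0.00900), passed without any 1 library (highest 0.0316) and was 1.92 without sedentary 1 and 2 (edgeR's adjusted p = 0.00136). Cdc37l1, related to the kinase-specific co-chaperone Cdc37, rose from 33.5 ± 7.61 to 54.4 ± 3.13 CPM (0.70 ± 0.16 SE, edgeR's adjusted p = 0.0203), a call lost without exercise 7, 8 or 9 (highest 0.0571). Bag3, a heat-inducible nucleotide exchange factor of HSP70, had 34.7, 44.3, 20.1, 21.1 and 20.2 CPM in sedentary 1 to 5 and 16.5, 15.9, 15.5, 14.7 and 15.4 CPM in exercise 6 to 10. All exercise values lay below all sedentary ones (log2 fold change -0.85 ± 0.23 SE, edgeR's adjusted p = 0.0383). The call held without sedentary 1 and 2 together (-0.37, edgeR's adjusted p = 0.0191), but was lost without sedentary 1, sedentary 2 or any 1 exercise library (0.0557 to 0.0951).

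**Figure D5:**
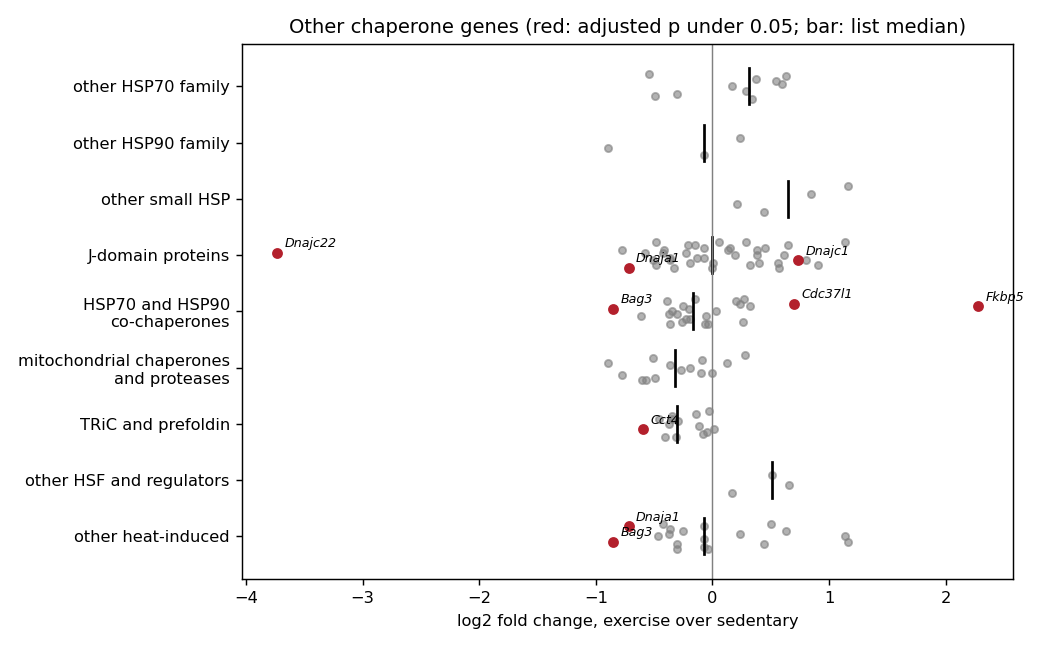
Log2 fold change, exercise over sedentary, of the tested genes of 9 chaperone lists (points; red past the threshold and named; black bars are list medians). A gene can stand in 2 lists. Fkbp5 at 2.28 and Dnajc22 at -3.73 lie farthest from 0, and most other points lie within 1 of it.

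None of 14 mitochondrial chaperones, cofactors and proteases passed (median -0.32), and the smallest p was that of the import motor subunit Dnajc19, at 19.9 ± 7.89 and 11.6 ± 1.32 CPM (edgeR's adjusted p = 0.0602). It passed without sedentary 3 or 4 (0.0434 and 0.0251). The cytosolic chaperonin TRiC and prefoldin fold actin and tubulin. Against 11.4% lower and 2.44% higher among all genes tested, 1 of their 14 tested subunits fell and none rose (median -0.31). This was Cct4, from 85.2 ± 21.6 to 56.4 ± 5.73 CPM (-0.59 ± 0.18 SE, edgeR's adjusted p = 0.0495), and the call was lost without sedentary 1, 2 or 5, any 1 exercise library, or sedentary 1 and 2 together (0.0575 to 0.126). None of 3 tested heat shock factors and regulators other than Hsf1 passed. Hsf2, which pairs with HSF1, had 10.5 ± 4.89 and 14.9 ± 1.73 CPM (edgeR's adjusted p = 0.271). Of 19 tested textbook heat-induced genes outside the 10, Bag3 and Dnaja1 fell and none rose (median -0.07). Without sedentary 1 and 2, Bag3 fell and Dnaja4 and Hspb8 rose. Of all genes tested, 13.9% were called with all libraries and 12.8% without sedentary 1 and 2.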

How the data were processed

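The values are estimated counts for Ensembl genes, 1 column per library, as deposited by the authors. Stranded mRNA libraries were made from column-purified total RNA, per the labels' protocols. The tools fastp and kallisto are named, without versions, in the submitters' processing notes. Genome build and annotation: not given in the sources used here. Counts were rounded before testing, since 12.6% had a fractional part (beyond 1e-06). Symbols were matched for 93.6% of 52178 genes. Groups came from the labels. Over 45 library pairs, chi-square per degree of freedom was at least 8.96, so no library was a repeat of another.

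Genes were tested in R 4.3.3 with edgeR 4.0.16 (quasi-likelihood test, TMM factors, default low-count filter with a minimum count of 10 and a minimum total of 15, which left 15298 genes; Benjamini-Hochberg, threshold 0.05). The HSP70 ratio was compared by exact permutation. Log2 CPM used a prior count of 2. No set test was run. The 10 genes, the lists and the tests were chosen with earlier results of these data known. All 10 genes were named, with, per chaperone list, the called genes of smallest p (up to 4) or otherwise the gene of smallest p, the 4 immediate early genes of smallest p, and the 5 genes most like Hspa1b and most like Hspd1.

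Alternatives were other scalings, filters and tests (DESeq2 1.42.0, limma 3.58.1 voom), leaving out libraries, summing the HSP70 copies, and the mean log2 CPM of acinar or intestinal markers as a covariate. On counts simulated for this comparison over 15298 genes, edgeR found 19 of the 100 with a 2-fold change and 73 of the 100 with a 4-fold change, and called 3 unchanged genes. Each simulated gene was drawn independently around a common mean, apart from the set changes. There was no shift in tissue content and no outlying library, so these rates need not hold for the real counts. Distinct 31-base words were compared over GENCODE M21 transcripts. Totals of 15081922 to 23222704 counts gave the 10 genes between 37 and 43035 counts per library.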

Additional observations from a re-analysis of the deposited data

Results flagged for a closer look

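Hspa8 in exercise 10 stood apart from the rest of its group, at 1307 CPM against 1212 to 1222 CPM in the other exercise libraries. Its gap to the nearest library was 0.891 of the group's range, above the 95% critical value of Dixon's test for 5 values. This was the only one among 24 groups of values examined, and chance marks about 1 in 20 groups.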

How the results depend on the processing

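Over the alternatives, 175 of 201 single values of the 10 genes kept their direction and their side of the threshold. The count of called genes among the 10 was 4, and 2 with limma-voom, 0 with the acinar and 0 with the intestinal covariate, and 4 to 7 with 1 library left out, 7 being without sedentary 4. Both covariates follow the group (r squared 0.632 and 0.805), and edgeR called 0 of all genes with either (1903 and 217 had p under 0.05 before adjustment, and without a covariate 3739 passed by DESeq2 and 516 by limma-voom). Of the 10, 4 and 0 had an unadjusted p under 0.05 with them. Of the list genes, 7 were called, and 41 with library totals alone, 20 with DESeq2, 3 with limma-voom, 0 with the acinar and 0 with the intestinal covariate (8 and 0 unadjusted), and 2 to 21 with 1 library left out. Those 21 were without sedentary 4, and the 2 without exercise 7 or 8. Without sedentary 1, sedentary 2, exercise 6 or exercise 10 there were 4, and without exercise 9 there were 3. Of all genes, 2119 were called, and 4567 with library totals alone, 3739 with DESeq2, 516 with limma-voom, and 951 to 3610 with 1 library left out, lowest without exercise 8 and highest without sedentary 4. The cause was not tested.

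With the intestinal covariate the log2 fold changes changed sign to 0.61 for Hspa1a, 0.93 for Hspa1b, 0.63 for Hspa8, 0.36 for Hsph1, 0.79 for Hspd1, 0.46 for Hspe1, 0.51 for Hspa14, 0.65 for Trap1, 0.13 for Dnajc22, 0.28 for Dnaja1, 0.32 for Bag3, 0.42 for Dnajc19, 0.12 for Cct4 and 0.51 for Klf4, and to -0.25 for Hspb8, -0.76 for Hsf2 and -0.25 for Gadd45b. With the acinar covariate Hsph1 went to 0.091 and Socs3 to -0.24. Hspa8 went to 0.033 without sedentary 1 and 2, and Hsp90aa1 to -0.064 with library totals alone. Scaling to library totals moved the median of all genes by -0.34, relative to which Hspa1b was at -2.84 and Hsf1 at 0.38, and upper-quartile scaling moved it by 0.11. The HSP70 ratio differed by -2.25 to -1.82 with 1 library left out (exact permutation p = 0.0159 each, the smallest possible), and the summed share of the 10 genes by -0.117 to -0.0692 percentage points, and by -0.0497 without sedentary 1 and 2, where it was -0.0982 with all libraries. No paired analysis was possible because the replicate numbers of the 2 groups run from 1 to 10 with none shared.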

Other observations

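Immediate early genes are known to rise within minutes of stress and with enzymatic dissociation. Of 26 tested, 23 did not pass, 2 rose and 1 fell (median log2 fold change 0.21). The share called, 11.5%, was below the 13.9% of all genes tested. Without sedentary 1 and 2, where 12.8% of all genes tested were called, 1 rose and 1 fell. Klf4, a differentiation factor of epithelia, had means of 35.7 ± 22.5 and 10.4 ± 2.83 CPM and fell by 1.78 on the log2 scale (± 0.41 SE, edgeR's adjusted p = 0.0208). Sedentary 1 and 2 had 60.1 and 60.6 CPM, against 18.9 to 19.9 CPM in sedentary 3 to 5. Leaving out exercise 7, 8 or 9 ended the call (edgeR's adjusted p up to 0.0595), as did limma-voom (adjusted p = 0.0671). The growth arrest genes Btg2, at 69.1 ± 5.46 and 123 ± 47.4 CPM, and Gadd45b, at 14.6 ± 5.21 and 32.4 ± 13.3 CPM, rose (0.83 and 1.15, edgeR's adjusted p = 0.0339 and 0.0393). Neither passed without sedentary 1 and 2 (0.0585 and 0.0785) or with limma-voom (0.0618 and 0.0648). Btg2 was lost without sedentary 1, 2, 3 or 5 or exercise 6 or 7 (highest 0.0685), and Gadd45b without sedentary 1, 2 or 5 or exercise 6, 7, 8 or 9 (0.0869). Socs3, a feedback inhibitor of cytokine signalling, had 8.53 ± 5.42 and 24.1 ± 13.9 CPM (edgeR's adjusted p = 0.0655), and passed without sedentary 1 (0.0312). It also passed without sedentary 1 and 2 together (log2 fold change 1.71, edgeR's adjusted p = 0.0240) and with DESeq2 (adjusted p = 0.0170). The immediate early genes together took 0.0519 to 0.0733% of counts in sedentary and 0.0446 to 0.0639% in exercise libraries. As summed CPM, with the TMM factors, they had 464 to 692 in sedentary and 461 to 917 in exercise libraries.

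Among 10725 genes, those whose deviations from the group means over the 10 libraries were most like those of Hspa1b were Ksr1, Onecut2, Rnf152, Abcg2 and Dpyd (Pearson r of log2 CPM 0.991 to 0.994, as a description of libraries that share sedentary 1 and 2 as their extremes). Hspa1a, its near copy, came only at rank 540 (0.937), with Hspa8 at 745 and Dnajb1 at 1565, while Hspb1 was at -0.681. For Hspd1 the 5 were Taf15, Parp9, D17H6S53E, Fbxo22 and Vamp3 (0.985 to 0.988). Hspa8 came at rank 14 (0.980) and Hspe1 at 420 (0.938). Each of these 10 genes was higher in both sedentary 1 and sedentary 2 than the mean of its group.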
